A study of Mus musculus with 26 samples.

Results

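The genes described here mark lymphocytes and the antibody-secreting cells that develop from them. They are 9 of the 57010 genes in the deposited counts table: Cd79a, Cd79b, Ms4a1, Cd3e, Cd3g, Igkc, Ighm, Igha and Jchain. They are defined by symbol, with no threshold on their values, and were picked with earlier results of these data known. All 9 were also among the 21031 genes of the deposited normalized table. For 8 of them the normalized values stand under the symbol as written, and Jchain was found through a second symbol column because the first gives it an older name, Igj. Expression was measured by bulk RNA sequencing of mesenteric arteries, the small vessels that supply the gut, from male mice aged 8 weeks.

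The 26 libraries formed 4 comparisons. Wild-type arteries (WT, 3 libraries) were the controls of a global Panx1 knockout (Panx1 KO, 3 libraries), in which the gene is missing from every cell type and not only from the artery. The other 3 lines carried an amino acid change in pannexin 1, a membrane channel that releases ATP. The Y198F line gave 3 libraries of mice labelled Y198F+/+ and 3 of controls labelled Y198F-/-. The S205A line gave 4 libraries labelled S205A+/+ and 4 labelled S205A-/-, and the Y308F line gave 3 labelled Y308F+/+ and 3 labelled Y308F-/-. The labels describe the controls as littermates or wild type and name no Cre driver, no treatment and no pooling. The series' design text gives 3 vascular trees for each genotype, fewer than the 4 libraries of each S205A group. Neither source says that each library came from a separate animal, so the p-values below measure the spread between these libraries, which may in part be technical.

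B lymphocytes carry a membrane antibody as their antigen receptor. Its heavy chain ends in a constant region (Ighm for IgM, Ighd for IgD, Igha for IgA, the Ighg genes for IgG), and most mouse antibodies pair it with a kappa light chain, encoded by Igkc. Cd79a and Cd79b form the signalling pair that carries the receptor's message into the cell, and Ms4a1 encodes CD20, a B cell surface protein that is lost when the cell becomes a plasma cell. Jchain encodes the small joining chain that links IgA and IgM into polymers before they are secreted across mucosal surfaces. T lymphocytes use a different receptor, whose signal passes through the CD3 complex, of which Cd3e and Cd3g encode the epsilon and gamma chains. In the mesentery, lymphocytes are found in lymph nodes, in the fat around the vessels, in milky spots and in the blood, while the arterial wall of a healthy young mouse holds few.

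Total counts ran from 14.9 to 23.6 mega-counts per library, so 1 count corresponds to about 0.05 CPM (counts per mega-count of normalized library size). Panx1 itself checked the knockout label: the wild-type libraries had 96, 61 and 95 counts and the Panx1 KO libraries had 11, 20 and 27. In the other groups Panx1 had 16 to 95 counts. The lowest, S205A control 1 (0.824 CPM), lay within the knockout range of 0.588 to 1.37 CPM, and S205A control 3 was at 1.55 CPM. The arteries carried the markers of their own wall at high level. The summed level of 7 smooth muscle genes was 20644.8 to 42632.8 CPM, and that of 5 blood endothelial genes was 1082 to 9205 CPM. The library number in the labels begins with 22 in 9 libraries: all 3 Y198F libraries, S205A controls 1 to 3 and S205A libraries 2 to 4. What that number stands for is not stated. None of the Y198F controls belongs to this series, so in the Y198F comparison the mutation and the series cannot be told apart.

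The 9 genes were detected at low level and very unevenly. Their summed level was 54.2 CPM in Y198F library 1 and 49.3 CPM in Panx1 KO library 3, but 1.60 CPM in S205A control 1 and 2.21 CPM in Y308F control 3. Those 4 libraries were the extremes in both directions, and each came from a different group. S205A control 1 stood apart more widely: of 17 marker lists it had the lowest summed level in 8, among them blood endothelium (1082 CPM), lymphatic endothelium and B cells, and the highest level of smooth muscle genes (42632.8 CPM). Y198F library 1 alone held 11.9% of all counts of the 9 genes, and Panx1 KO library 3 held 11.5%. Panx1 KO library 3 was among the 6 highest libraries for all 9 genes, and Y198F library 1 and Y308F control 1 for 8 each. In bulk tissue, fewer cells of a type and less RNA per cell cannot be told apart, and neither can lymphocytes in the wall and lymphocytes in tissue or blood attached to it.

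**Figure D1:**
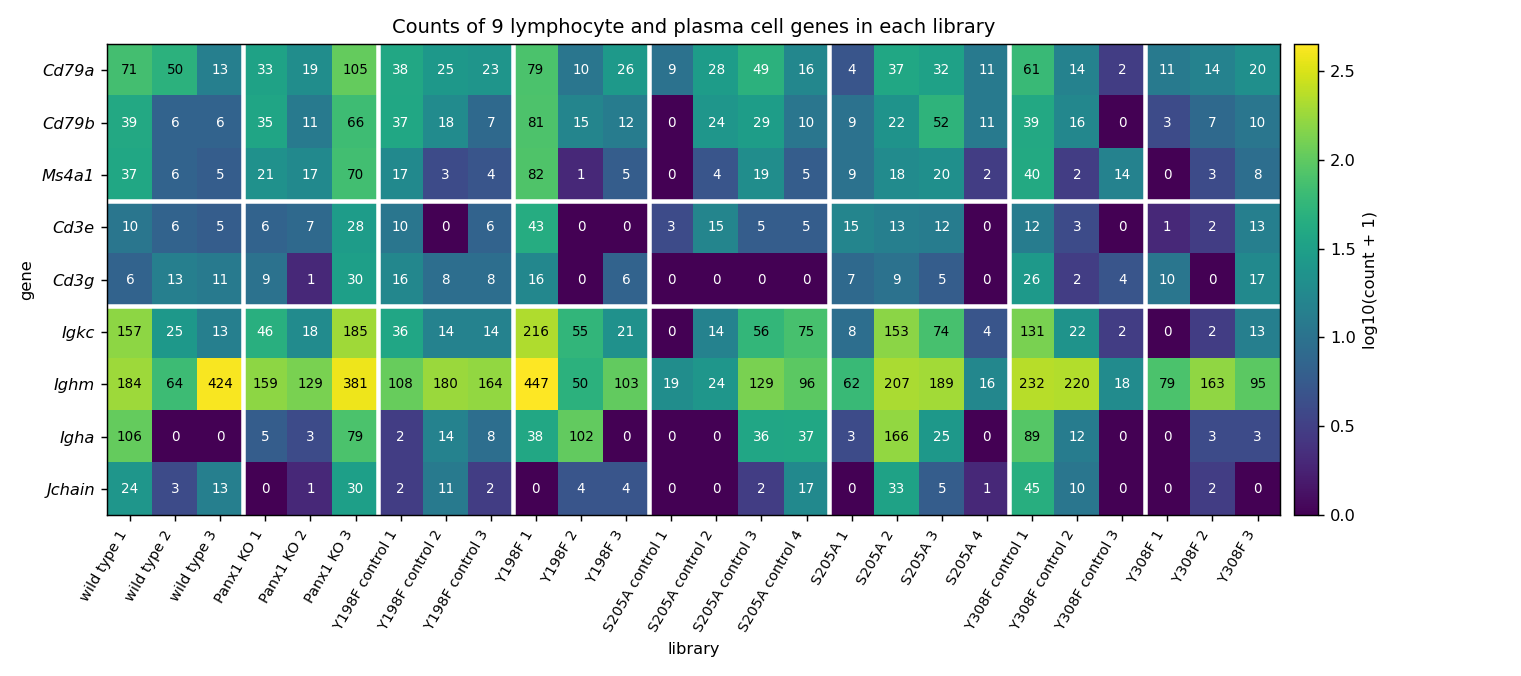
Deposited counts of the 9 genes (rows) in each of the 26 libraries (columns), with colour giving log10(count + 1) and white lines separating the groups and the B cell, T cell and antibody genes. Wild type 1, Panx1 KO 3, Y198F 1, S205A 2, S205A 3 and Y308F control 1 are bright in most rows, and S205A control 1 and Y308F control 3 are dark in most rows.

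Among the B cell receptor and surface genes, Cd79a (ENSMUSG00000003379, GRCm39 chr7:24596740-24601622, plus strand) was the one found in every library. Its counts were 71, 50 and 13 in wild type and 33, 19 and 105 in Panx1 KO. They were 38, 25 and 23 in the Y198F controls and 79, 10 and 26 in Y198F. They were 9, 28, 49 and 16 in the S205A controls and 4, 37, 32 and 11 in S205A, and 61, 14 and 2 in the Y308F controls and 11, 14 and 20 in Y308F. The Y198F controls and the Y308F libraries lay close together, while every other group held a high and a low library. An exon of an unnamed gene on the opposite strand, Gm72234, overlaps Cd79a, and the labels do not say whether counting used the strand.

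Cd79b (ENSMUSG00000040592, chr11:106202167-106205588, minus strand) followed the same libraries. It had 39, 6 and 6 counts in wild type, 35, 11 and 66 in Panx1 KO, 37, 18 and 7 in the Y198F controls and 81, 15 and 12 in Y198F. It had 0, 24, 29 and 10 counts in the S205A controls, 9, 22, 52 and 11 in S205A, 39, 16 and 0 in the Y308F controls and 3, 7 and 10 in Y308F. Both libraries without a count were control libraries.

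Ms4a1 (ENSMUSG00000024673, chr19:11227039-11243605, minus strand) was the most concentrated of the 3. Y198F library 1 had 82 counts and Panx1 KO library 3 had 70, and together with Y308F control 1 (40) and wild type 1 (37) they stood above the other 22 libraries, which had 0 to 21. The other Y198F libraries had 1 and 5 counts. Within the groups that hold these 4 libraries, the remaining libraries had 1 to 21 counts.

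Of the T cell genes, Cd3e (ENSMUSG00000032093, chr9:44910037-44920925, minus strand) had 0 to 43 counts and was at 0 in 5 libraries. It had 43, 0 and 0 counts in Y198F and 6, 7 and 28 in Panx1 KO, against 10, 0 and 6 in the Y198F controls and 10, 6 and 5 in wild type. It had 15, 13, 12 and 0 in S205A and 3, 15, 5 and 5 in their controls, and 1, 2 and 13 in Y308F against 12, 3 and 0 in theirs. An exon of Gm48719, on the opposite strand, overlaps it.

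Cd3g (ENSMUSG00000002033, chr9:44880870-44891735, minus strand), which lies beside Cd3e, had 0 to 30 counts and was at 0 in 7 libraries. Of these, 4 were the S205A controls, in none of which it had a count. The S205A libraries had 7, 9, 5 and 0 counts. The summed counts were 21 against 0. With the control group set at a floor of 3 counts over its 73.8 mega-counts, the ratio of S205A to its controls was 7.74. That ratio takes the 21 counts as exact and leaves out the spread between libraries, so it is no lower bound. The groups touched at 0, and the exact two-sided permutation test of CPM gave p = 0.143, against 0.0286 for the smallest p that 4 against 4 libraries allow. Other parts of the T cell receptor complex were present in the same controls: Cd3e had 3 to 15 counts there, and Trac, the constant region of the receptor's alpha chain, had 0.163 to 1.34 CPM. Over all groups, the median Cd3g level was 0 CPM in the 9 libraries of the 22 series and 0.451 CPM in the other 17. Within the 22 series the S205A libraries had 9, 5 and 0 counts and their controls 0, 0 and 0, and the S205A library and control outside it had 7 and 0.

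Among the antibody genes, Ighm and Igkc were the most abundant members per length, and Igha, Jchain and Igkc varied most between libraries. Ighm (ENSMUSG00000076617, chr12:113382178-113386350, minus strand) was found in every library, with 16 to 447 counts and a median of 129. Its counts were 184, 64 and 424 in wild type, 159, 129 and 381 in Panx1 KO, 108, 180 and 164 in the Y198F controls and 447, 50 and 103 in Y198F. In the S205A controls they were 19, 24, 129 and 96, in S205A 62, 207, 189 and 16, in the Y308F controls 232, 220 and 18, and in Y308F 79, 163 and 95. Wild type 3 had the second highest Ighm count of all libraries with low counts of the B cell genes (13 for Cd79a, 6 for Cd79b and 5 for Ms4a1).

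Igkc (ENSMUSG00000076609, chr6:70703419-70703950, plus strand, 1 exon) ranged from 0 to 216 counts. It had 157, 25 and 13 in wild type and 46, 18 and 185 in Panx1 KO, and 36, 14 and 14 in the Y198F controls and 216, 55 and 21 in Y198F. It had 0, 14, 56 and 75 in the S205A controls, 8, 153, 74 and 4 in S205A, 131, 22 and 2 in the Y308F controls and 0, 2 and 13 in Y308F. All 3 Y308F libraries were below 14 counts, the lowest range of any group. Gm68839, on the opposite strand, overlaps the exon.

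Igha (ENSMUSG00000095079, chr12:113218450-113223856, minus strand) was present in some libraries and missing from others of the same group. Wild type had 106, 0 and 0 counts, Panx1 KO 5, 3 and 79, the Y198F controls 2, 14 and 8, and Y198F 38, 102 and 0. The S205A controls had 0, 0, 36 and 37, S205A had 3, 166, 25 and 0, the Y308F controls had 89, 12 and 0, and Y308F had 0, 3 and 3. S205A library 2 held 22.7% of all Igha counts, and 8 of the 26 libraries had none. Jchain (ENSMUSG00000067149, chr5:88667668-88675750, minus strand) had a median of 2 counts, was at 0 in 8 libraries and reached 45 in Y308F control 1, 33 in S205A library 2, 30 in Panx1 KO library 3 and 24 in wild type 1. Those 4 libraries were also high in Igha, at 89, 166, 79 and 106 counts. Y198F library 2, with 102 Igha counts, had 4 of Jchain.

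Scaled per kilobase of exon, the median level over libraries was highest for Ighm (3.47 CPM per kb), followed by Igkc (2.09), Cd79a (0.846) and Cd79b (0.524). Cd3g (0.102), Igha (0.0791), Cd3e (0.0779), Ms4a1 (0.0604) and Jchain (0.0447) were lower. The mean of Igha over the same libraries was 0.577 CPM per kb, above its median.

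Spread between libraries of a group was wide for all 9 genes. The biological coefficient of variation (edgeR's estimate of the relative spread between replicates, in a fit of all 8 groups) was 0.751 for Cd79a, 0.786 for Ighm, 0.934 for Cd79b, 0.998 for Cd3g, 1.05 for Ms4a1, 1.16 for Cd3e, 1.24 for Igkc, 1.50 for Jchain and 2.00 for Igha. The median over the 18715 genes of that fit was 0.238, and 87.9% of them varied less than Cd79a, the steadiest of the 9. Igha varied more than 99.96% of them. The trend fitted over genes of the same abundance was 0.499 for Igha and 0.404 for Igkc.

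**Figure D2:**
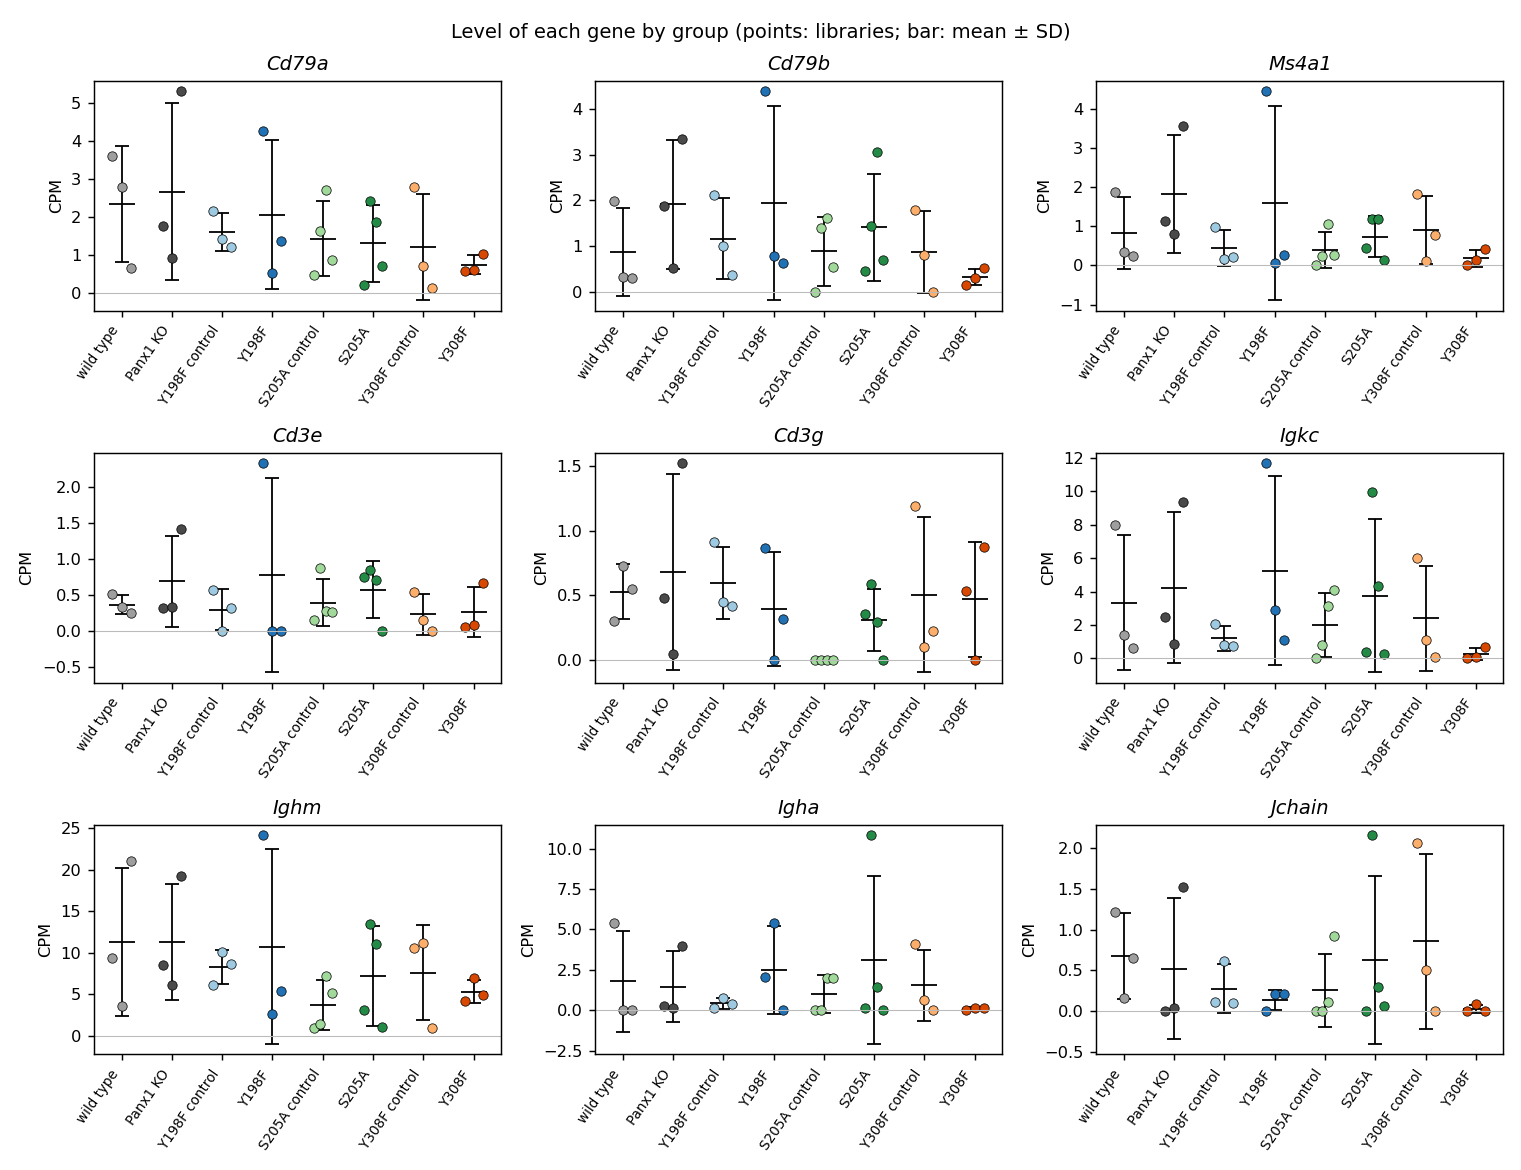
Level of each of the 9 genes in CPM (linear axis) by group; each point is a library and the horizontal mark and bar are the group mean and SD (n = 3, or 4 in the S205A groups). In most panels 1 library stands far above the rest of its group, so that the SD is about as large as the mean or larger.

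Ordered by group mean, the highest level fell to a different group from gene to gene: Panx1 KO for Cd79a, Ms4a1 and Cd3g, Y198F for Cd79b, Cd3e and Igkc, wild type for Ighm, S205A for Igha and Y308F control for Jchain. Y308F had the lowest mean for 6 genes. Its levels were 0.737 CPM ± 0.254 for Cd79a, 0.324 ± 0.179 for Cd79b, 0.180 ± 0.211 for Ms4a1, 0.252 ± 0.365 for Igkc, 0.0941 ± 0.0826 for Igha and 0.0284 ± 0.0492 for Jchain (SD, n = 3 for each). Over the 63 pairs of groups that were neighbours in these orders, the library ranges overlapped or touched in 62. In 60 the means differed by less than the larger of both SDs. Neighbours in an order of means are close by construction, so these counts do not show that the groups were alike. The pair without overlap was of Igkc, whose Y308F libraries (at most 0.670 CPM) lay under the next lowest group, the Y198F controls (0.736 to 2.05 CPM). That pair of groups is no comparison of the design and was not tested.

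The comparison of Panx1 KO with wild type asks what loss of the channel does to the artery. Of the 9 genes, 7 passed edgeR's filter on low counts and were tested, and none was past the threshold, an adjusted p-value under 0.05 in edgeR's quasi-likelihood test. Over all 16193 genes tested, 5 were past it (0.0309%), so 0 of 7 is near that background. None of the 7 had an unadjusted p under 0.05 either, against 11.2% of all genes tested. Cd79b averaged 1.91 CPM ± 1.41 (SD, n = 3) in the knockout and 0.873 ± 0.962 (SD, n = 3) in wild type. The fitted log2 difference was 1.11 ± 0.873 (SE), and edgeR's adjusted p was 0.673. For Ms4a1 the log2 difference was 1.14 ± 0.859 (SE), with adjusted p 0.662 in edgeR. Ighm was level, at 11.3 CPM ± 7.02 (SD, n = 3) against 11.3 ± 8.92 (SD, n = 3), and a fitted log2 difference of -0.03 ± 0.777 (SE). For every one of the 9 genes the libraries of both groups overlapped, whereas 18.3% of the genes tested had groups that did not.

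For 5 of the 7 genes the direction turned when a single library was left out. Without Panx1 KO library 3 the log2 fold change of Cd79a was -0.83 in place of 0.18, that of Igkc was -1.03 in place of 0.33 and that of Cd3g was -1.01 in place of 0.37. Without wild type 3, whose Ighm count was 424, that of Ighm was 0.80, and without wild type 1 that of Jchain was 0.32 in place of -0.39. Cd79b and Ms4a1 stayed above 0, at 0.43 to 2.56 and 0.21 to 2.61. Without wild type 1 their log2 differences were 2.56 and 2.61, with unadjusted p of 0.0201 and 0.0162 in edgeR. Jchain without Panx1 KO library 3 was -4.47, with an unadjusted p of 0.0144. No adjusted p of the 7 genes came under 0.424 when a library was left out. Of the markers of other tissues, none of the adipocyte or erythroid genes was past the threshold and the libraries of both groups overlapped in their summed levels. All 7 adipocyte genes had a log2 fold change below 0 (median -1.55), with a summed level of 523.2 to 2909 CPM in wild type and 186 to 918.1 CPM in the knockout. Of the erythroid genes, 5 of 5 tested were below 0 (median -2.88), with 1.68 to 587.8 CPM and 18.8 to 35.7 CPM. Wild type 3 had the highest sum of both lists (2909 and 587.8 CPM), and wild type 2 had the lowest erythroid sum (1.68 CPM). Of the other leukocyte lists, 10 of 11 macrophage genes (median 0.46) and 5 of 5 antigen presenting genes tested (median 0.53) were above 0, none past the threshold. Their part in the values of the lymphocyte genes was not tested.

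The Y198F comparison concerns a tyrosine of the channel that can be phosphorylated. Here 5 of the 9 genes were tested and none was past the threshold, while 2411 of 16050 genes were (15.0%). Igkc had 216, 55 and 21 counts in Y198F against 36, 14 and 14 in the controls, a mean of 5.23 CPM ± 5.66 against 1.19 ± 0.745 (SD, n = 3 each). Its fitted log2 difference was 2.15 ± 0.927 (SE) at an adjusted p of 0.187 in edgeR, and the exact two-sided permutation test gave p = 0.2, where 3 against 3 libraries cannot go below 0.1. For Igha the log2 difference was 2.48 ± 1.44 (SE), with adjusted p 0.323 in edgeR. The 3 other genes tested, Cd79a, Cd79b and Ighm, had log2 fold changes of 0.39 to 0.75 with adjusted p of 0.614 to 0.824. None of the 5 had an unadjusted p under 0.05 in edgeR, against 29.1% of the genes tested. The libraries of both groups overlapped for all 9 genes, while 34.1% of the genes tested had groups that did not.

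Among the markers of other cells, the 7 adipocyte genes had log2 fold changes above 0 (median 1.23). Their summed level was 212.3 to 2153 CPM in Y198F and 372.7 to 500.1 CPM in the controls. The 5 erythroid genes tested were above 0 as well (median 1.55), at 45.4 to 380.2 and 15.9 to 130.4 CPM. For both lists the ranges of the groups overlapped. The 5 lymphatic endothelial genes were below 0 (median -1.19; 46.6 to 93.1 and 95.5 to 237.9 CPM). Of the macrophage genes 1 of 11 was above 0 (median -0.45), and of the antigen presenting genes 5 of 5 tested were (median 0.46; 31.4 to 96.6 and 37.7 to 75.8 CPM). None of these was past the threshold. Past it were 3 of 7 smooth muscle genes and 1 of 5 blood endothelial genes, where 15.0% of all genes tested were. Tagln (log2 fold change 1.14), Smtn (0.54) and Cldn5 (0.59) were higher in Y198F, and Lmod1 (-0.48) was lower. The mutation and the library series cannot be told apart here, and with a term for the series 0 genes were past the threshold. The part of all these markers in the values of the lymphocyte genes was not tested.

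The call on Igkc depended on the test. It was past the threshold in DESeq2 (adjusted p 0.0133), in edgeR without the filter on low counts (0.00459) and without Y198F library 3 (0.0325), where Igha was past it as well (adjusted p 0.0194). With 1 library left out at a time, the log2 fold change of Igha ran from 1.22 to 3.19, and its adjusted p in edgeR from 0.0194 to 0.636. Without Y198F library 1 the log2 fold change of Igkc was 0.77 and those of Cd79a, Cd79b and Ighm were -0.73, -0.68 and -1.03. With a term for the library series Igkc was 2.22, and against S205A controls 1 to 3 it was 2.00, both with an adjusted p of 1. Within the 22 series, Y198F could be set against S205A controls 1 to 3, where Igkc had 0, 14 and 56 counts. In the authors' deposited table for this line, the log2 fold changes were matched to within 0.00016 when recomputed against the 4 S205A controls, and not against the labelled Y198F controls. That table gives Igkc a log2 fold change of 1.39 (adjusted p 0.904) and Ighm 1.55 (adjusted p 0.759). It also gives Cd3g 5.29 (adjusted p 0.251), a fitted value against controls that are all at 0 and so no bound. Against the labelled controls Cd3g had 16, 0 and 6 counts and the controls 16, 8 and 8, and it was not tested for low counts.

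In the S205A comparison, which concerns a serine of the channel, 6 of the 9 genes were tested. None was past the threshold, and neither was any of the 15709 genes (0%), of which 451 (2.87%) had an unadjusted edgeR p under 0.05, none of the 6 among them. DESeq2 called 47 genes and none of the 9. For all 9 genes the libraries of both groups overlapped or touched, and 1.75% of the genes tested had groups that did not. Igha averaged 3.11 CPM ± 5.19 against 1.00 ± 1.16 (SD, n = 4 each), and its log2 difference of 1.63 ± 1.66 (SE) was -0.86 without S205A library 2. That of Ighm was 0.97 ± 0.841 (SE) and stayed between 0.48 and 1.51 when any 1 library was left out. Igkc had 0.91 (SE 1.28) and -0.24 without S205A library 2. Without S205A control 1, the library that stood apart in other marker lists, Igkc was 0.50, Ighm 0.66, Igha 1.22, Cd79a -0.42, Cd79b 0.26 (0.68 with it) and Cd3e 0.29 (0.56 with it). Cd79a was level at 1.30 CPM ± 1.02 against 1.42 ± 0.991 (SD, n = 4 each), and a log2 difference of -0.12 ± 0.771 (SE). Among the markers of other cells, 5 of 5 antigen presenting genes tested were above 0 (median log2 fold change 1.24), with a summed level of 20.4 to 162.7 CPM in S205A and 18.7 to 62.0 CPM in the controls. So were 8 of 10 macrophage genes tested (median 0.29), while 0 of 7 adipocyte genes were (median -0.54). None was past the threshold, and their part in the values of the lymphocyte genes was not tested.

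The authors' deposited table for S205A gives Cd3g the largest log2 fold change of the 9 genes, 4.93 (p 0.00121, adjusted p 0.145), which again is a fitted value against 4 controls at 0. The other 8 genes have an adjusted p of 1 in that table. The deposited Y198F table was matched by the same 4 controls, so its Cd3g value rests on the same zeros.

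In the Y308F comparison, which concerns the other tyrosine, 5 of the 9 genes were tested. Again none was past the threshold, nor was any of the 16037 genes (0%), of which 706 (4.40%) had an unadjusted p under 0.05 in edgeR. DESeq2 also called none of the 9. All 5 log2 fold changes were below 0, where 46.0% of all genes tested were above it. The genes rose and fell together from library to library, so these signs are not separate observations. When 1 library was left out, the highest values were 0.81 for Cd79a and 1.48 for Cd3g. Those of Cd79b (-0.35), Ighm (-0.14) and Igkc (-1.31) stayed below 0. The libraries of both groups overlapped for all 9 genes, against 10.6% of genes tested whose groups did not. Igkc had 0, 2 and 13 counts in Y308F and 131, 22 and 2 in the controls, a mean of 0.252 CPM ± 0.365 against 2.41 ± 3.15 (SD, n = 3 each). Its fitted log2 difference was -3.28 ± 1.51 (SE), at p 0.0671 and adjusted p 0.940 in edgeR. The exact two-sided permutation test gave p = 0.2. Without Y308F control 1, the library with 131 counts, the log2 fold change was -1.31, and without Y308F library 3 it was -5.55 (adjusted p of 1 in edgeR). Without Y308F control 3, 5 of the 8 genes then tested had an unadjusted p under 0.05 in edgeR, among them Ighm, Igkc and Cd79b, and their adjusted p was 0.576, 0.576 and 0.5998. Over all genes, 1383 of 16671 had an unadjusted p under 0.05 in that fit. Cd79b had -1.44 (SE 1.09), Cd79a -0.74 (SE 0.897), Ighm -0.53 (SE 0.743) and Cd3g -0.18 (SE 1.19).

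Of the 4 genes not tested here, Ms4a1 had 0, 3 and 8 counts in Y308F and 40, 2 and 14 in the controls, and Igha had 0, 3 and 3 against 89, 12 and 0. Jchain had 0, 2 and 0 counts against 45, 10 and 0, and Cd3e 1, 2 and 13 against 12, 3 and 0. In each case most of the control counts lay in Y308F control 1. Marker genes of other cells were also mostly below 0. All 4 mesothelial genes (median log2 fold change -2.08; 0.361 to 5.89 CPM in Y308F and 0 to 26.4 CPM in the controls) and all 5 antigen presenting genes tested (median -0.92; 32.6 to 43.3 and 18.8 to 114.4 CPM) were, as were 9 of 10 macrophage genes tested (median -0.31). None was past the threshold, and their part in the values of the lymphocyte genes was not tested. Its level of the 9 genes together, 30.9 CPM, was above the 15.3 CPM of Y308F control 2, the 2.21 CPM of Y308F control 3 and the 5.52 to 9.22 CPM of the Y308F libraries. In the authors' deposited table Jchain has a log2 fold change of -4.85 (p 0.0183), Igha -4.07 (p 0.111) and Igkc -3.29 (p 0.0347), all with an adjusted p of 1.

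**Figure D3:**
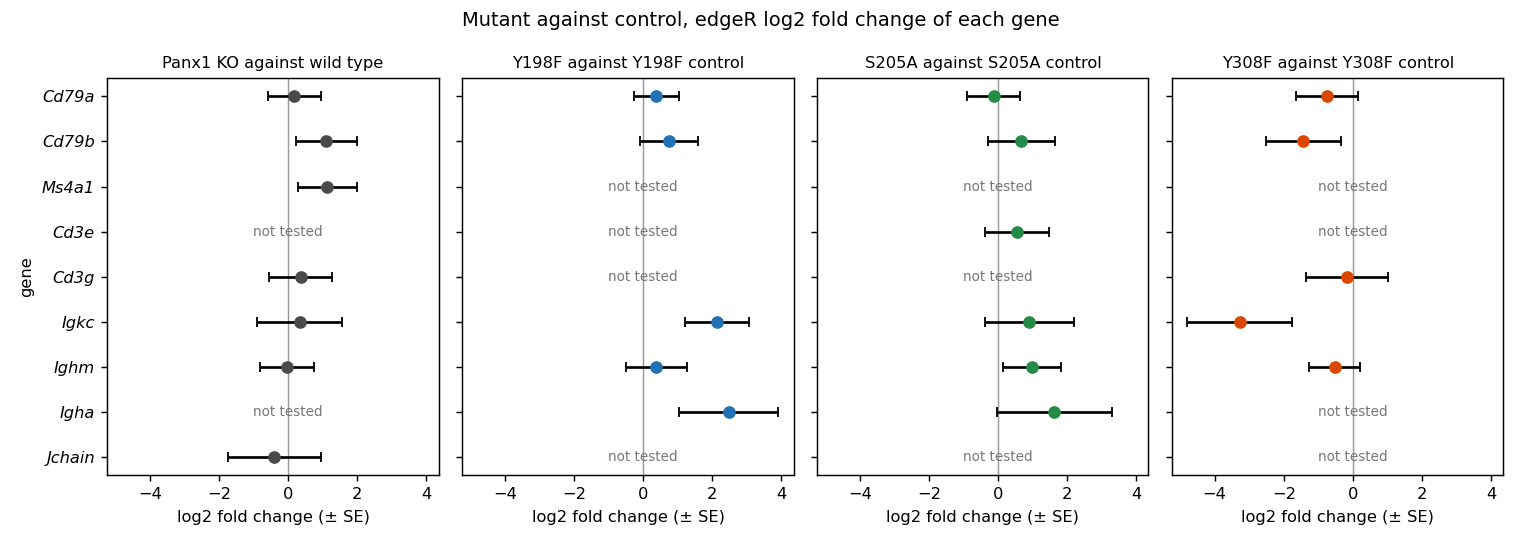
Log2 fold change of each gene, mutant over control, in the 4 comparisons, with bars of 1 standard error from edgeR's quasi-likelihood fit; genes with too few counts are marked as not tested. The bars of most genes cross 0. Igkc sits at 2.15 in Y198F and at -3.28 in Y308F, with bars that do not reach 0 and adjusted p of 0.187 and 0.940.

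Whether an effect differed between lines was tested as the difference between 2 mutant-control contrasts in 1 fit of all 8 groups, for 6 pairs of lines. In this fit all 9 genes were tested, and none was past the threshold in any pair. Over all 18715 genes the share past it was 0.577% for Panx1 KO against Y198F, 0.0107% for Panx1 KO against S205A and against Y308F, 0.0160% for Y198F against S205A, and 0% for Y308F against Y198F and against S205A. The log2 difference of Igkc between Y198F and Y308F was 5.44 (SE 2.32), with an adjusted p of 0.229. Cd3g differed between Y198F and S205A by -6.14 (SE 2.31, adjusted p 0.167), a value that again turns on the zeros of the S205A controls. Ms4a1 differed between Y198F and Y308F by 4.15 (SE 1.95, adjusted p 0.269).

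The genes rose and fell together from library to library. Over the 26 libraries, Pearson's r of log2 CPM was above 0 for all 36 pairs of the 9 genes, from 0.144 to 0.845 with a median of 0.554. By a permutation test with 100000 resamples, 28 of the 36 pairs were past an adjusted p of 0.05, and 27 by Spearman's rho. The genes share libraries, depth correction and low counts, so single pairs of sparse genes carry little weight. The closest pairs were Cd79b with Igkc (r = 0.845, rho = 0.839), Igkc with Igha (r = 0.817, rho = 0.793) and Cd79a with Cd79b (r = 0.803, rho = 0.781). With the 2 libraries farthest from the median left out, these were 0.804, 0.813 and 0.784. The adjusted permutation p was 9e-05, 9e-05 and 0.000144, where the smallest unadjusted p that the resamples can give is 1e-05.

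Of the 6 pairs of a T cell gene with a B cell gene, 5 were past the threshold, and Cd3g with Cd79b was not (r = 0.330, rho = 0.303, adjusted permutation p 0.112). Cd3e had r = 0.704 with Ms4a1 (rho = 0.703, adjusted permutation p 0.000566) and 0.598 with Cd79a (rho = 0.619, adjusted permutation p 0.00288), and r = 0.459 with Cd3g (rho = 0.488, adjusted permutation p 0.0261). The difference between these r was not tested. Cd3g with Igha (r = 0.158) and Cd3e with Jchain (r = 0.144) were the loosest pairs, with adjusted permutation p of 0.450 and 0.484. Igha and Jchain, whose products join in secreted IgA, had r = 0.681 (rho = 0.576, adjusted permutation p 0.00096), and 0.654 without the 2 farthest libraries.

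The pattern was also present within groups and within each library series. With log2 CPM centred on group means, the median r over the 36 pairs was 0.612 and 30 pairs were past the threshold. Within the 9 libraries of the 22 series the median was 0.652 with 14 pairs past it (exact permutation test), and within the other 17 it was 0.547 with 21. In every one of these settings all 36 values of r were above 0. Leaving out the 2 libraries farthest from the median of the first gene of each pair gave a median of 0.499 over all libraries, from 0.0718 for Cd3g with Igha to 0.884 for Cd79a with Ms4a1.

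**Figure D4:**
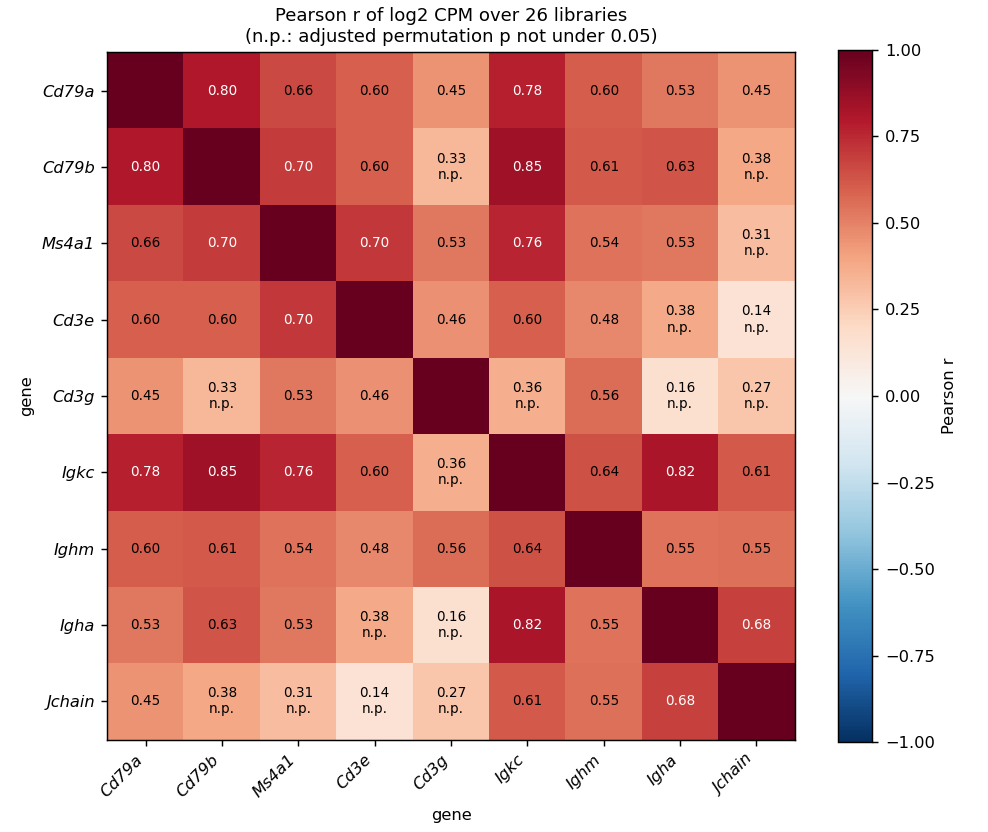
Pearson's r of log2 CPM between each pair of the 9 genes over 26 libraries, on a colour scale from -1 to 1; n.p. marks pairs whose adjusted permutation p was not under 0.05. Every off-diagonal value is above 0, the block of Cd79a, Cd79b, Ms4a1 and Igkc is the darkest, and Cd3g and Jchain hold most of the pale cells.

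To see which other cells moved with them, Cd79a and Igha were set against the summed level of 17 marker lists and against total counts, 36 relations in all. These 2 genes were chosen after their values were seen. Cd79a rose with the B cell list (r = 0.813, rho = 0.895, adjusted permutation p 0.00018), the T cell list (r = 0.780, rho = 0.846, 0.00018), the natural killer and innate lymphoid list (r = 0.703, rho = 0.620, 0.00108) and the antigen presenting list (r = 0.616, rho = 0.547, 0.00662). Without the 2 libraries farthest from the median of Cd79a these r were 0.832, 0.866, 0.614 and 0.478. Within the 22 series they were 0.873, 0.948, 0.864 and 0.576, and within the other 17 libraries 0.911, 0.755, 0.660 and 0.649. For the macrophage list r was 0.07 (adjusted permutation p 0.807), at -0.49 within the 22 series and 0.36 in the other libraries. The r was 0.16 (0.662) for the adipocyte list, 0.15 (0.672) for the lymphatic endothelial list and -0.23 (0.598) for the erythroid list. Total counts gave r = -0.23 (0.598). With the plasma cell list r was 0.10 for Cd79a (rho = -0.04, adjusted permutation p 0.755) and 0.11 for Igha (rho = -0.12, adjusted permutation p 0.747). Igha passed with the B cell list (r = 0.607, rho = 0.657, adjusted permutation p 0.0063), the natural killer list (r = 0.578, rho = 0.505, 0.0121) and the antigen presenting list (r = 0.540, rho = 0.463, 0.0247), but not with the T cell list (r = 0.439, rho = 0.460, 0.115). By rho, 1 of these 3 relations of Igha was past the threshold, that with the B cell list. Within the 22 series these 3 r were 0.603, 0.578 and 0.475, within the other libraries 0.665, 0.596 and 0.596, and without the 2 farthest libraries 0.686, 0.616 and 0.583.

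Most markers of the intestinal epithelium were at or near 0. Of 10 intestinal epithelial genes, 7 had a median of 0 counts over the libraries, among them Epcam (0 to 2 counts) and Pigr, the receptor that carries polymeric IgA across the epithelium (0 to 2 counts). The other 3 were Lgals4 (142 to 347 counts in every library), Vil1 (3 to 73) and Muc2 (3 to 67). Of 6 neutrophil genes, 5 had a median of 0.

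Genes with the most similar pattern were sought among 14310 others, over the 26 libraries, by r with the mean profile of each class. The B cell profile (Cd79a, Cd79b, Ms4a1) was closest to Ighd (r = 0.955), the IgD constant region of naive B cells, and among the next closest were Rasal3 (0.895) and Gimap3 (0.848). The profile of Cd3e and Cd3g was closest to Cd72 (0.738), a B cell surface protein. Coro1a (0.729), Ighd (0.727) and Ptprc (0.701), the pan-leukocyte phosphatase CD45, were also among the closest. The antibody profile (Igkc, Igha, Jchain) was closest to Arhgap45 (0.771), H2-Eb1 (0.760), a class II antigen-presenting chain, Dock2 (0.752), Selplg (0.745) and Rasal3 (0.729). These values are descriptions, since the closest of many genes were picked.

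The heavy-chain constant genes show which antibody classes lay behind the counts. Over all libraries Ighm took 64.7% of the counts of these genes, Ighd 20.5%, Igha 12.0%, Ighg2c 1.64% and Ighg1 0.673%. Ighe had 0 counts. The IgG genes are close copies of each other, and the authors' counting could split reads between them, so the single IgG shares are uncertain. Within a library the IgM share had a median of 66.9%, the IgD share 15.9%, the IgA share 3.09% and the summed IgG share 1.54%.

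The mixture differed between libraries of the same group. Y198F library 2 had 157 heavy-chain counts, of which 65.0% were Igha (exact 95% interval 57.0 to 72.4%) and 3.18% Ighd (1.04 to 7.28%), while Y198F library 1 of the same group had 815, of which 4.66% were Igha (3.32 to 6.34%) and 40.5% Ighd (37.1 to 44.0%). S205A library 2 had 35.6% Igha (31.3 to 40.2%), wild type 1 had 28.0% (23.6 to 32.9%) and S205A control 4 had 25.9% (18.9 to 33.9%). Wild type 3 stood at the other end, with 99.1% Ighm, 0.935% Ighd and no Igha in 428 counts, for which the exact upper bound is 0.858%. Its Igkc count was 13. Its Cd79a count was also 13, and its Ighd count was 4.

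**Figure D5:**
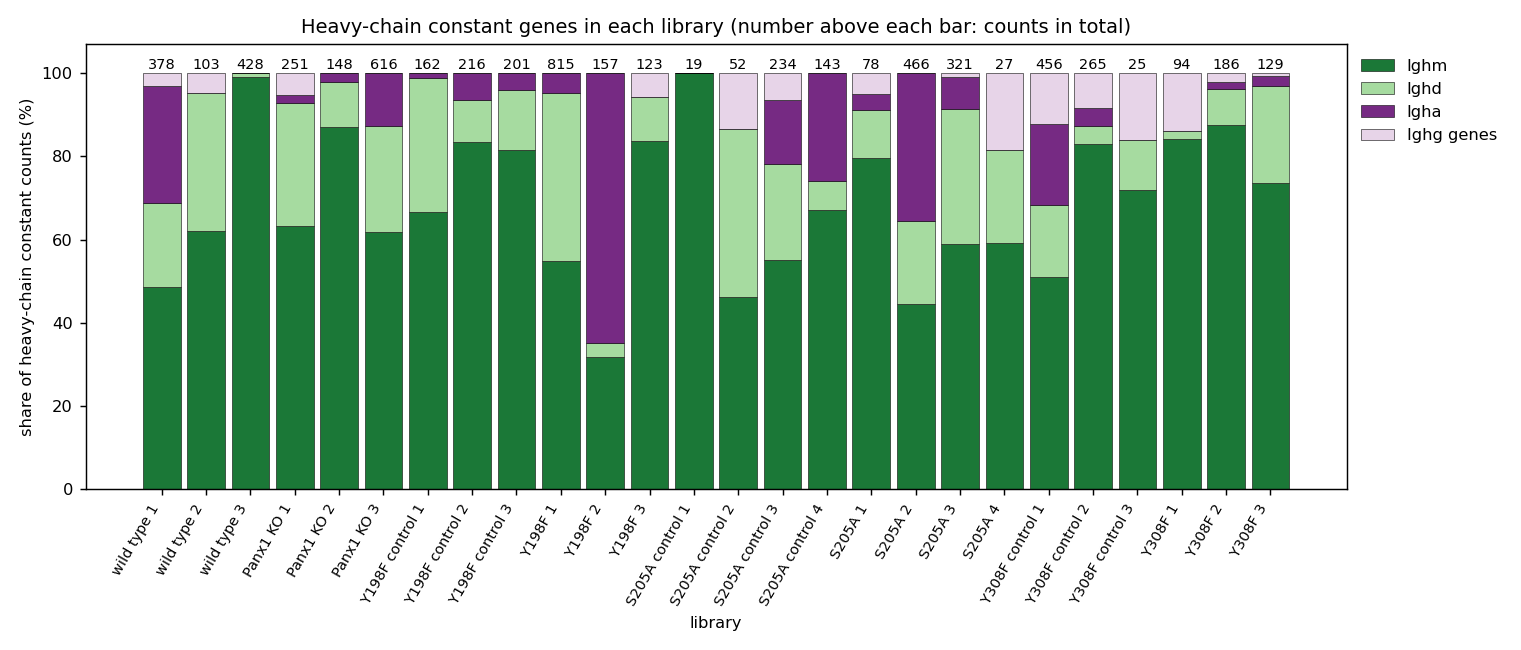
Share of each heavy-chain constant gene among all heavy-chain constant counts in each library (%, stacked bars), with the counts in total above each bar. Igha fills 65.0% of the bar of Y198F 2 and 35.6% of S205A 2, wild type 3 is 99.1% Ighm, and bars with under 30 counts (S205A control 1, S205A 4, Y308F control 3) rest on few reads.

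The variable (V) segments, joined to a constant gene when a lymphocyte builds its receptor, show how widely the counts were spread over the germline repertoire. One segment serves many receptors, so a number of segments is no number of receptors. Counts were found for 138 of 218 annotated immunoglobulin V segments, and 81 had 3 or more counts in some library. The shares below are over the 216 segments named Ighv, Igkv or Iglv. Panx1 KO library 3 had 173 counts over 54 named segments, and its most abundant, Igkv1-110, took 10.4% of them (exact 95% interval 6.28 to 15.9%). Y198F library 1 had a leading share near that, 9.09% (4.45 to 16.1%), with 110 counts over fewer segments, 26. These intervals cover counting error only, and reads of near-identical V segments may be split or lost.

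The share of the leading segment differed among libraries with Igha counts. Panx1 KO library 3 and Y198F library 1, where that share was low, had 79 and 38 Igha counts. Y308F control 1, with 89, had 122 V counts over 28 segments and 11.5% in the leading one. In Y198F library 2 only 4 of the named segments had counts, and Igkv4-68 took 20 of their 38, or 52.6% (exact 95% interval 35.8 to 69.0%). With the unnamed V segments included, that library had 43 V counts. In S205A control 4, Ighv1-53 took 39 of 83 counts, or 47.0% (35.9 to 58.3%), and these were 39 of the 43 Ighv1-53 counts in the whole series. Wild type 1, with 106 Igha counts, had 61 V counts over 19 segments and 14.8% in the leading one. In S205A library 2, with 145 counts over 18 segments, Igkv6-23 had 30 and Igkv5-43 had 25. Only 5 segments reached 20 counts in any library: these 4 and Igkv1-135, with 20 in S205A control 4. The T cell receptor V segments had 1 to 51 counts per library, with the most in Panx1 KO library 3. That was fewer than the immunoglobulin V counts in most libraries but not in all. Wild type 2 had 19 against 13, and S205A library 4 had 12 against 5.

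V segments are transcribed from promoters that carry the octamer, a motif bound by the lymphoid factors Oct-2 and its coactivator (Pou2af1), which is ATGCAAAT in one orientation and ATTTGCAT in the other. Sequence upstream of 3 of the leading segments is shown so that the element can be seen in the promoters behind these counts. Each stretch holds the octamer in capitals with 24 bases on either side, is written 5′ to 3′ in the direction of transcription, and was read from the GRCm39 genome with GENCODE starts: Ighv1-53 at chr12:115122532-115122587, Igkv4-68 at chr6:69282423-69282478 and Igkv5-43 at chr6:69800972-69801027, all on the minus strand.
Ighv1-53: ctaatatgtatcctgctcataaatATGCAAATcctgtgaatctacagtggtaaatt
Igkv4-68: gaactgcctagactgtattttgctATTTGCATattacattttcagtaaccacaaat
Igkv5-43: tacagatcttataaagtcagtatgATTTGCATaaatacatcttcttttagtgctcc

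In the 250 bases before the annotated start, the octamer in either orientation was present for 166 of 218 immunoglobulin V segments (76.1%), against 1.49% of 21770 protein-coding genes. Its orientation followed the chain: 90 of 113 heavy-chain segments held ATGCAAAT in the direction of transcription and none held ATTTGCAT, whereas 72 of 100 kappa segments held ATTTGCAT and 2 of them both. These letters were not in the window of Igkv6-23, nor in those of Cd79a, Cd79b, Ms4a1, Cd3e, Cd3g and Jchain. A match is a description of the sequence and was not tested as a site.

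Other genes tied to these cells were taken in lists chosen with earlier results of these data known. The only calls among them were Prkcq and Ltbr in Y198F, described below. Of 15 other B cell genes, 11 were tested in the knockout comparison, 8 in Y198F, 5 in S205A and 4 in Y308F, and none was past the threshold in any. Their median log2 fold change was 0.82 in Panx1 KO (11 of 11 above 0), 0.59 in Y198F (7 of 8), 0.82 in S205A (5 of 5) and -0.83 in Y308F (0 of 4). Over all genes tested the median was between -0.03 and 0.01, and 50.8%, 49.7%, 46.9% and 46.0% were above 0. These genes move together from library to library, so the counts of signs are not separate observations. Among the most abundant were Ighd and Cd37, a tetraspanin. Ighd had log2 fold changes of 1.08 in Panx1 KO, 1.73 in Y198F, 1.46 in S205A and -0.93 in Y308F, and its Y198F counts of 330, 5 and 13 show how far 1 library sets such a value.

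Of 17 other T cell genes, 11, 6, 5 and 6 were tested in the same order and none was past the threshold. The median log2 fold changes were 0.27, -0.01, 0.31 and -0.54. Tcf7, a T cell transcription factor that other cells of the vessel also express, was the most abundant at 78 to 348 counts, and Cd247, the zeta chain of the receptor complex, had 6 to 108. Cd247 had log2 fold changes of -0.27, 0.36, 0.17 and 0.29. Of the 17 genes of the plasma cell list, 5, 5, 3 and 5 were tested and none was past the threshold. Most of the list's level came from Sdc1 (647 to 5649 counts) and Xbp1 (1594 to 2779), which many cell types express. Of the defining plasma cell genes, Tnfrsf17 had 0 to 3 counts, Mzb1 0 to 9 and Prdm1 0 to 26.

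Downstream signalling genes gave 1 call, 1 of the 7 T cell receptor genes tested in Y198F, where 15.0% of all genes tested were past the threshold. Prkcq, a kinase of the T cell receptor pathway, was lower in Y198F than in its labelled controls, at a log2 difference of -1.46 and an adjusted p of 0.0373 in edgeR. Once the library series was entered into the fit of all 8 groups its log2 difference was 0.08, and against S205A controls 1 to 3 it was 1.51, both with an adjusted p of 1. The call was also lost without any 1 of 4 libraries, Y198F controls 2 and 3 and Y198F libraries 2 and 3 (adjusted p 0.0914 to 0.191). None of the other tested genes of the B cell receptor list (11, 10, 8 and 9 of 12) or the T cell receptor list (8, 7, 7 and 7 of 11) was past the threshold. Among 11 genes of lymphoid homing and organisation, 5 of them tested in Y198F, Ltbr, the lymphotoxin beta receptor of stromal cells, was higher in Y198F (log2 fold change 0.67, edgeR adjusted p 0.00107), and 0.21 with an adjusted p of 1 once the series was a term. Ccl21a, a chemokine of lymph nodes and lymphatic vessels, was found in every library (113 to 3503 counts), at a log2 difference of -1.03 in Panx1 KO (p 0.00738 and adjusted p 0.339 in edgeR). Ccl19, which acts on the same receptor, had 5 to 55 counts. The follicle chemokine Cxcl13 had 0 to 22 counts, and Glycam1 and Madcam1, of the specialised venules of lymphoid tissue, had at most 5 and 10.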

How the data were processed

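Gene expression was read by bulk RNA sequencing of 26 mesenteric artery libraries, as paired reads of 150 bases, per the labels' protocols. The authors mapped reads to GRCm39 with STAR 2.7.9a, counted them by gene in featureCounts (Rsubread 2.20.0) and compared groups with DESeq2 1.46.0, per the submitters' processing notes and the series' design text. The annotation release and strand setting are not given in the sources used here. The deposited counts are whole numbers. The deposited normalized signal is the count divided by 1 size factor per library. The authors' deposited comparison tables give log2 fold changes with standard errors, test scores and both raw and adjusted p-values, and the Panx1 KO table does not list Cd3e, Cd3g and Jchain.

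Groups came from titles and genotypes, with each mutant set against its labelled controls. The members and lists were chosen with earlier results of these data known. All 9 members are named, and from the other lists those past the threshold and up to 3 with the highest mean count. Further genes named (Cd72 and other likeness genes, Trac, Tnfrsf17, Mzb1, Prdm1, Ccl21a, Ccl19, Cxcl13, Glycam1, Madcam1, Epcam, Pigr, Vil1, Muc2) follow a likeness rule or were chosen after their values were seen. Some genes that these rules select are not reported here. The test was edgeR 4.0.16 in R 4.3.3 (TMM, filterByExpr, robust quasi-likelihood fit, only the comparison's groups, Benjamini-Hochberg adjustment over all genes tested), tested on simulated data. CPM used TMM factors over all 26 libraries, and log2 CPM a prior count of 2. List sums were logged after adding 0.1 CPM. Correlations used permutations in Python 3.11.15. Alternatives were DESeq2 1.42.0, its size factors in edgeR, no filter, all 8 groups, the replicate number as a block, each library left out, a term for the library series, the 22 series alone and a prior count of 0.5. Gene positions came from GENCODE vM39, matched for 56310 identifiers. Replicate pairs differed by more than sampling noise (chi-square per degree of freedom 14.98 to 159). Intervals cover counting error only, and the floor for Cd3g concerns the control counts only.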

Additional observations from a re-analysis of the deposited data

Results flagged for a closer look

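In the S205A groups, the only ones with 4 libraries, each gene was checked for a library that stood apart from the other 3 of its group (Dixon's test at the 95% level). Of the 17 sets of 4 values that could be checked, 5 held such a library. Chance gives about 1 in 20 for normally distributed values. These levels in CPM are skewed and hold zeros, so that rate need not apply, and the genes are not independent of each other. The level of Igha was 10.8 CPM in S205A library 2, against 0 to 1.47 CPM in the other 3. The level of Jchain was 2.15 CPM in the same library, against 0 to 0.294 CPM. S205A control 4 had 0.924 CPM of Jchain, against 0 to 0.111 CPM. For Cd3e, S205A control 2 had 0.875 CPM, against 0.155 to 0.277 CPM, and S205A library 4 had 0 CPM, against 0.705 to 0.849 CPM.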

How the results depend on the processing

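Of the refitted log2 fold changes of the 9 genes, 251 kept their direction and their side of the threshold, 31 reversed and 5 came past the threshold; no fold change that reversed was past it in either fit. Values below are log2 fold changes, mutant over control, and the cause of each change was not tested.

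With 1 library left out at a time, those in Panx1 KO ranged from -0.83 to 0.64 for Cd79a, -1.01 to 0.91 for Cd3g, -1.03 to 2.04 for Igkc, -0.66 to 0.80 for Ighm and -4.47 to 0.32 for Jchain. In Y198F the ranges were -0.73 to 0.84 for Cd79a, -0.68 to 1.49 for Cd79b and -1.03 to 0.85 for Ighm. In S205A they were -0.60 to 0.40 for Cd79a, -0.042 to 1.13 for Cd79b, -0.24 to 1.52 for Igkc and -0.86 to 2.22 for Igha, and in Y308F -1.27 to 0.81 for Cd79a and -1.001 to 1.48 for Cd3g. Of the 9 genes, 0 to 2 were past the threshold in Y198F when a library was left out. The 2 were among 8 tested without Y198F library 3, where 2093 of all 16612 genes tested were past it.

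DESeq2 called 1 of the 9 in Y198F, as did edgeR without the filter (1), Igkc in both. Over all genes, DESeq2 called 2671 of 28748 there, and edgeR without the filter called 3158 of 28760. With a term for the library series, Cd79a was -1.31, Cd79b -0.64 and Prkcq 0.077 in Y198F. Prkcq was 1.51 against the S205A controls of the 22 series. Within the 22 series Cd79a was 0.069 in S205A, and 14 of the 36 pairs of genes were past the threshold, where 28 were over all libraries.

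Replicate numbers recur across groups, but equally numbered libraries did not deviate together: r of their deviations from the group means ran from -0.37 to 0.31, and in Panx1 KO, Y198F, S205A and Y308F 3 of 6, 3 of 6, 2 of 8 and 2 of 6 libraries were closest to their own number. With the replicate block, Cd79a was -0.040, Cd3g -0.047 and Ighm 0.12 in Panx1 KO, and Ighm was -0.18 in Y198F. The block brought 1 of the 5 genes tested past the threshold in Y198F, Igkc (edgeR adjusted p 0.0409), where 1760 of all 16050 genes tested were past it. It changed no other call on the 9 genes.

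Over all genes, Panx1 KO had 5 calls, against 116 in DESeq2, 243 without the filter, 18 with the block, 3 without wild type 2, and 1 each without wild type 1 or any 1 knockout library. Y198F had 2411 calls, against 922 in the fit of all 8 groups, 1546 and 908 without controls 1 and 3, and 0 with the series term or against the S205A controls of the 22 series. S205A had 0, against 47 in DESeq2 and 1 without S205A library 2. Y308F had 0, against 7 without the filter and 1 without control 3. At 1 to 5 counts a gene's level rests on a few reads. What difference in Cd3e, Cd3g, Ms4a1 or Jchain could be detected between such libraries at this depth was not tested.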
